A study of Oryza sativa with 6 samples.

Results

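Cytosine methylation of rice DNA is written by DNA methyltransferases, kept through replication with the help of chromatin remodelers, and removed by DNA glycosylases that cut out the methylated base. MET1 proteins copy methylation at CG sites after replication, chromomethylases act at CHG and CHH sites (H is any base but G), and the domain-rearranged methyltransferase DRM2 works with small RNAs at sites that need methylation anew. In rice this machinery holds transposons silent and is needed for development, and the loss of MET1b is lethal in seedlings. OsChz1, the gene mutated here, encodes a histone chaperone that binds dimers of H2A or H2A.Z with H2B.

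The genes described are 10 loci chosen by name: the methyltransferase genes MET1a, MET1b, DRM2, CMT3a and CMT3b, the remodeler genes DDM1a and DDM1b, and the demethylase genes ROS1a, ROS1b and ROS1c. Of these, 9 were among the 30020 genes of the deposited comparison and all 9 were among the 25945 genes with an adjusted p. ROS1b (LOC_Os02g29230) was not analysed here. No threshold on expression was used to choose them, but earlier results of these data were known when they were listed. In the reference gene table, 5 of the 10 symbols stood on the chromosome that their locus identifier gives (MET1a, MET1b, DRM2, CMT3a and ROS1c), and the other 5 are named as listed for this work.

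RNA-seq was performed on 30-day-old seedlings of wild-type rice (cultivar Nipponbare) and of the oschz1 mutant, with 3 libraries for each genotype. Both were raised under long days (14 h of light at 30 °C, 10 h of darkness at 28 °C) on half-strength medium for 10 days and then on full medium for 20 days. The study describes the sequenced line as oschz1-1, a frameshift allele made by CRISPR/Cas9, so that 1 allele stands for the mutant, and each library as a pool of seedlings. The study calls the 3 libraries of each genotype biological replicates, but neither it nor the labels say whether they came from separate cultures. The p-values below refer to these libraries alone. Those of the DESeq2 Wald test use the spread between libraries as fitted, which is not the spread of each gene's own values.

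The deposited table gives 1 comparison and no columns of single libraries, but whole reads of single libraries could be worked back from it for 8 of the 9 genes. The libraries are called a, b and c within each genotype in order of their size factor, the depth by which DESeq2 divides each count, since the table does not tell which repeat each of them was. The size factors ran from 0.596 (oschz1 c) to 1.59 (wild-type a), so the deepest library had a size factor over 2 times that of the shallowest. A normalized count below is the reads of a gene divided by the size factor, and a fold change is oschz1 over wild-type from the authors' deposited table. A gene is called when its fold change reaches 1.5 in either direction and its adjusted p is 0.05 or lower (DESeq2 Wald test, Benjamini-Hochberg adjustment over all tested genes). A rise or fall of transcripts in whole seedlings cannot be told apart from a change in the share of the cells that make them.

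MET1b (LOC_Os07g08500), the maintenance methyltransferase gene for CG sites, was the 1 member of the 9 that was called, and it rose. Its reads numbered 46, 29 and 22 in wild-type a, b and c, against 115, 73 and 31 in oschz1 a, b and c. The normalized counts were 28.9, 35.4 and 29.8 in wild-type and 77.2, 61.1 and 52.0 in oschz1. All 3 mutant libraries stood above all 3 wild-type libraries, and the lowest mutant value was well clear of the highest wild-type value. The means were 31.4 ± 3.49 and 63.4 ± 12.7 (SD, n = 3 each), and the log2 fold change was 1.05 ± 0.30 (SE; adjusted p = 0.00421), a 2.07-fold rise with a 95% interval from 1.38-fold to 3.11-fold.

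The share of called genes gives the setting of this count. Over all tested genes 7.58% were called, and 6.24% were called as higher in oschz1. Among genes whose mean normalized count lay within 2-fold of that of MET1b, 16.1% were called. With 1 of 9 members called, the count for the list was near these backgrounds and is no result about the list. At any fold change, 1 of 9 members passed the adjusted p, against 18.0% of all tested genes. The median log2 fold change of the members was 0.11, with 5 of 9 higher in oschz1, and that of all tested genes was -0.0049.

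**Figure D1:**
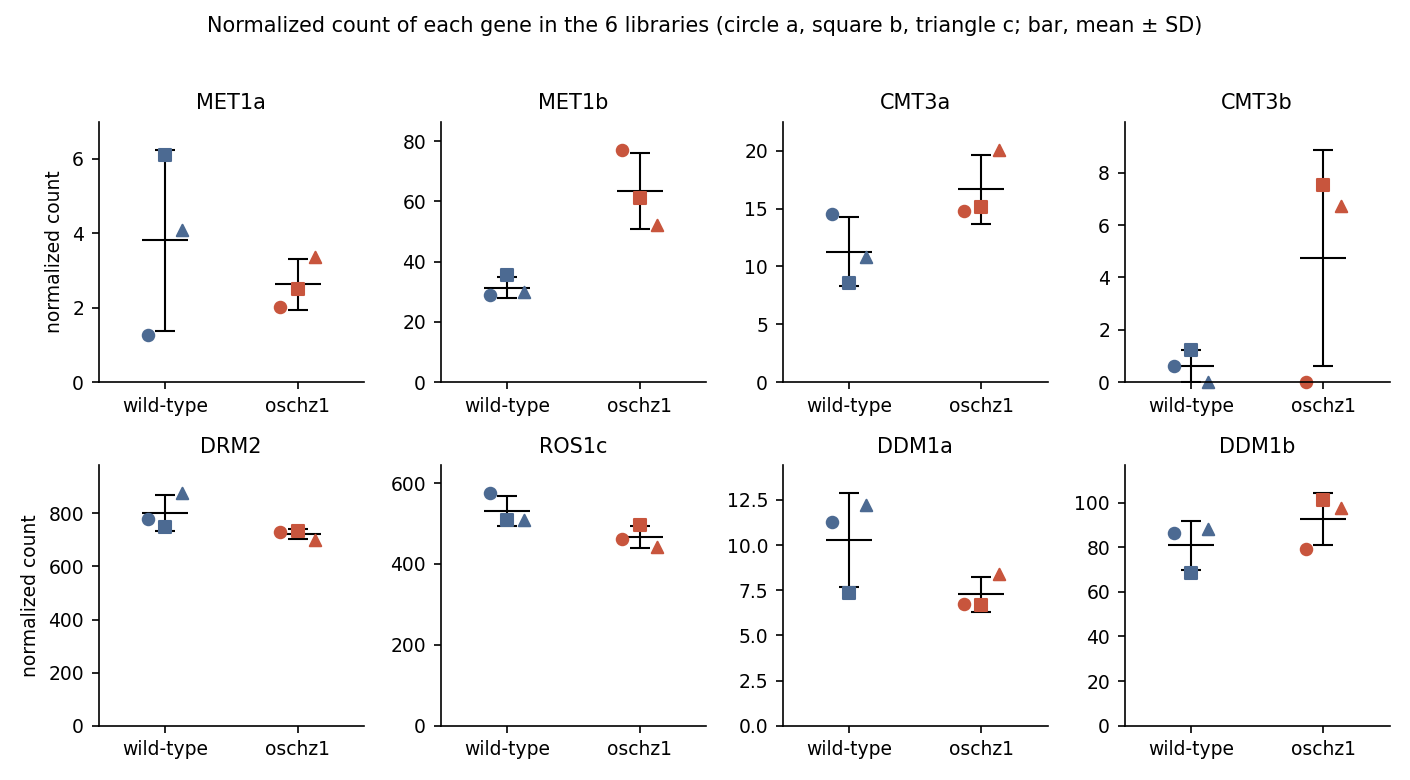
Normalized count (vertical axis, reads divided by the size factor, each panel with its own scale from 0) of 8 genes in the 3 wild-type and 3 oschz1 libraries; bars are mean ± SD. MET1b lies between 28.9 and 35.4 in wild-type and between 52.0 and 77.2 in oschz1, while the genotypes overlap for MET1a, CMT3b, DDM1a and DDM1b.

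Limits to the MET1b result come from the number of libraries. With 3 against 3 libraries an exact two-sided permutation test cannot go below p = 0.10, which is the value MET1b gave. The members CMT3a, DRM2 and ROS1c, which were not called, gave the same value in that test. The call did not stand when the Wald statistic was referred to a t distribution with 4 degrees of freedom (adjusted p = 0.223), or when oschz1 a was left out (log2 fold change 0.87 ± 0.34, SE). Without oschz1 a the unadjusted p was 0.01002, just over 0.00902, the largest unadjusted p that passes the adjusted p over all tested genes. MET1b is also among the loci whose RNA the study followed by quantitative PCR. For these loci the study reports higher RNA and lower nucleosome occupancy in the mutant by that assay. It describes them as a random pick from genes with both changes in its genome-wide profiles, so that choice was made on the same mutant. Of the 6 nearest tested loci, 3 on each side of MET1b, none was called by the DESeq2 Wald test (2 had an unadjusted p under 0.05), and their log2 fold changes ran from -0.16 to 0.19.

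The other maintenance methyltransferase gene, MET1a (LOC_Os03g58400), was too sparsely read for a comparison. It had 2, 5 and 3 reads in wild-type and 3, 3 and 2 reads in oschz1, 18 in all. The normalized counts were 1.26, 6.10 and 4.07 in wild-type and 2.01, 2.51 and 3.36 in oschz1, and the mutant values all fell within the wild-type range. The ratio of reads corrected for depth was 0.767 (oschz1 over wild-type), with an exact 95% interval from 0.263 to 2.16 that covers counting error only. The deposited log2 fold change was -0.51 ± 1.11 (SE; adjusted p = 0.848). Added together and not corrected for gene length, the normalized counts of MET1a and MET1b were 30.2, 41.5 and 33.9 in wild-type and 79.2, 63.6 and 55.4 in oschz1. Their means were 35.2 ± 5.75 and 66.1 ± 12.1 (SD, n = 3 each), and MET1b made up 85.3% to 97.5% of the sum in each library, so the sum follows MET1b.

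CMT3a (LOC_Os10g01570), the main chromomethylase gene for CHG sites in rice, was not called. Its reads were 23, 7 and 8 in wild-type and 22, 18 and 12 in oschz1. The normalized counts were 14.5, 8.54 and 10.8 against 14.8, 15.1 and 20.1. The genotypes did not overlap, but oschz1 a and wild-type a differed by less than 1 read's worth. The log2 fold change was 0.50 ± 0.53 (SE; adjusted p = 0.627), with a 95% interval from 0.690-fold to 2.89-fold, which leaves room for a change as large as that of MET1b.

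CMT3b (LOC_Os03g12570), a second chromomethylase gene, had the largest fold change of the members on the fewest reads. It had 1, 1 and 0 reads in wild-type and 0, 9 and 4 reads in oschz1. In normalized counts that was 0.629, 1.22 and 0 against 0, 7.54 and 6.72, so oschz1 a stood with the wild-type libraries and the genotypes overlapped. A count of 0 allows up to 3 reads, or a normalized count of up to 2.01 in oschz1 a and 4.07 in wild-type c. Summed over libraries there were 13 reads in oschz1 and 2 in wild-type, a depth-corrected ratio of 6.23 with an exact 95% interval from 1.41 to 56.9. That interval covers counting error only, and the DESeq2 fit, which also counts the spread between libraries, put the log2 fold change at 2.86 ± 1.59 (SE; adjusted p = 0.241). The difference was not past the threshold.

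DRM2 (LOC_Os03g02010), the methyltransferase gene of the small RNA pathway, was measured closely and was not called. Its reads were 1238, 613 and 646 in wild-type and 1090, 878 and 417 in oschz1. The normalized counts were 779, 748 and 876 against 731, 735 and 700.0. Every mutant library lay below every wild-type library, by a margin much smaller than the spread within wild-type. The means were 801 ± 66.6 and 722 ± 19.3 (SD, n = 3 each) and the log2 fold change was -0.14 ± 0.086 (SE; adjusted p = 0.292). The 95% interval, 0.806-fold to 1.02-fold, lies inside 1.5-fold either way.

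The remodeler gene DDM1b (LOC_Os03g51230), which encodes a protein of the Swi2/Snf2 class, was not called. It had 137, 56 and 65 reads in wild-type and 118, 121 and 58 in oschz1, or normalized counts of 86.2, 68.3 and 88.1 against 79.2, 101 and 97.4. The genotypes overlapped, with oschz1 a inside the wild-type range. The log2 fold change was 0.18 ± 0.22 (SE; adjusted p = 0.691), and its 95% interval from 0.840-fold to 1.53-fold ends just past 1.5-fold. Its paralog DDM1a (LOC_Os09g27060) had 18, 6 and 9 reads in wild-type and 10, 8 and 5 in oschz1. The normalized counts of 11.3, 7.32 and 12.2 against 6.71, 6.70 and 8.39 overlapped through wild-type b. The log2 fold change of DDM1a was -0.53 ± 0.66 (SE; adjusted p = 0.693). The paralogs summed to 91.2 ± 13.5 in wild-type and 99.9 ± 12.2 in oschz1 (SD, n = 3 each), a ratio of 1.10 with overlapping genotypes.

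Of the demethylase genes, ROS1c (LOC_Os05g37350) encodes a DNA glycosylase that in rice acts on retrotransposon DNA. Its reads were 913, 418 and 376 in wild-type and 689, 594 and 264 in oschz1. The normalized counts were 575, 510.0 and 509.7 against 462, 497 and 443, so that each mutant library was below each wild-type library, with oschz1 b close to the wild-type values. The means were 531 ± 37.4 and 468 ± 27.5 (SD, n = 3 each), and its log2 fold change was -0.19 ± 0.10 (SE; adjusted p = 0.221). ROS1a (LOC_Os01g11900), the glycosylase gene needed in rice reproduction, had a mean normalized count of 4451 over the 6 libraries, and its reads by library were not worked back. Its log2 fold change was 0.11 ± 0.065 (SE; adjusted p = 0.256). The 95% intervals were 0.767-fold to 1.01-fold for ROS1c and 0.991-fold to 1.18-fold for ROS1a, both inside 1.5-fold either way.

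**Figure D2:**
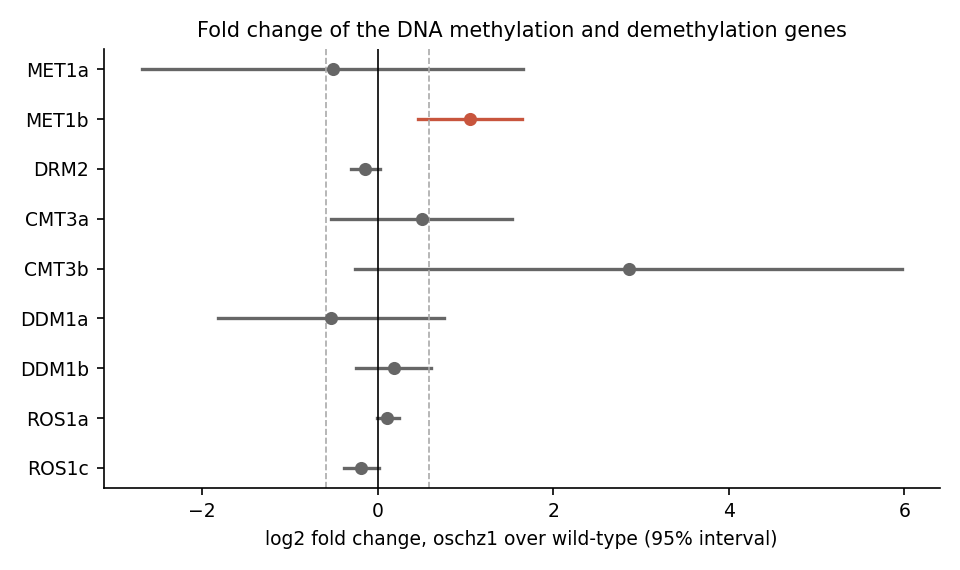
Log2 fold change (horizontal axis, oschz1 over wild-type) of the 9 genes with 95% intervals; dashed lines mark 1.5-fold either way and the called gene is in red. The intervals of DRM2, ROS1a and ROS1c lie inside the dashed lines, and that of MET1b runs from 0.46 to 1.64.

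The members differed in how closely they were measured. For DRM2, ROS1a and ROS1c the interval excluded a change of 1.5-fold, and for DDM1b it excluded a fall of that size and ended at a 1.53-fold rise. For MET1a, CMT3a, CMT3b and DDM1a, whose SEs ran from 0.53 to 1.59 on the log2 scale, a change of 1.5-fold was not detectable at this depth. Of the 8 genes with reads by library, 4 had genotypes that did not overlap, MET1b and CMT3a with higher and DRM2 and ROS1c with lower values in oschz1. Among the 7203 tested genes with a mean normalized count of at most 50 and recovered reads, 26.4% had genotypes that did not overlap. DRM2, ROS1c and DDM1b lie above that limit on the mean, where no such share was worked out. The 4 of 8 therefore has no matching background and is no result about the members. The spread between libraries that the fit allowed for, as a coefficient of variation, was 20.1% for MET1b, 6.29% for DRM2 and 7.24% for ROS1c, but 74.2% for MET1a and 96.8% for CMT3b. These are fitted values worked back from the deposited SE, and they do not measure the spread seen in each gene.

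**Figure D3:**
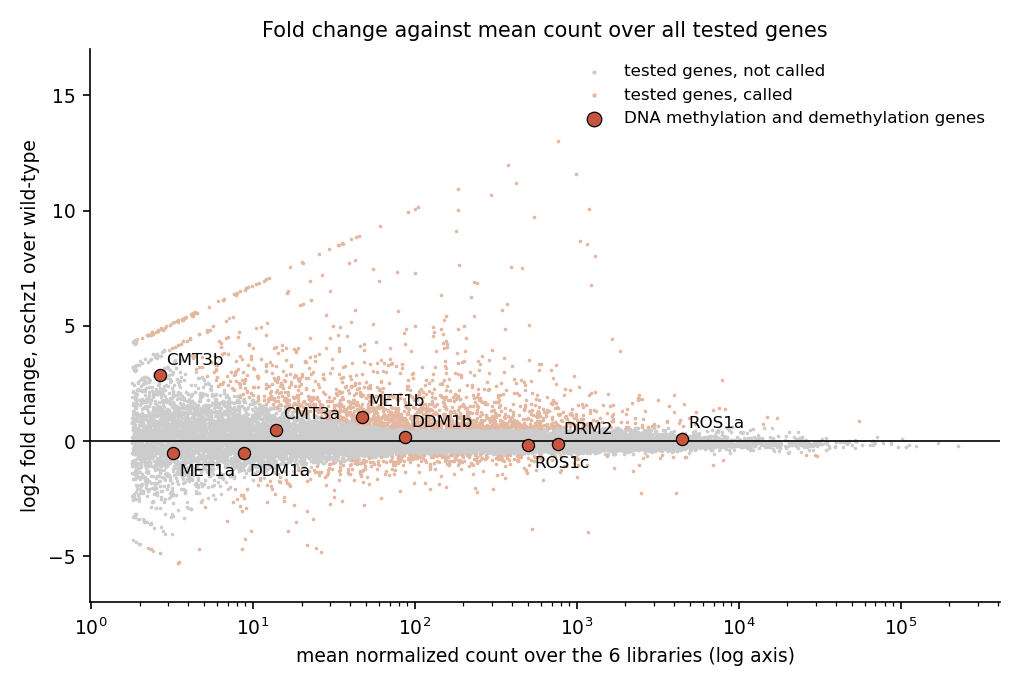
Log2 fold change (oschz1 over wild-type) against mean normalized count on a log axis for the 25945 tested genes, called genes in orange, the 9 DNA methylation and demethylation genes in red with their names. Fold changes scatter most at the left, where MET1a (mean 3.22) and CMT3b (mean 2.68) lie.

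Other genes of the same pathway were read from lists of 23 loci, made with earlier results of these data known. Of the 23 loci, 21 were tested. Of these 21 genes, 1 rose, 1 fell and 19 were not called, and the median log2 fold change was 0.020. As 7.58% of all tested genes were called in either direction, the count is near the background and is no result about the pathway. DRM1a (LOC_Os11g01810) and DRM1b (LOC_Os12g01800) were not analysed here. The gene that fell was listed as DML3b (LOC_Os04g28860), named after a class of plant demethylases. It had 52, 22 and 16 reads in wild-type and 7, 6 and 2 in oschz1, or normalized counts of 32.7, 26.8 and 21.7 against 4.70, 5.02 and 3.36. Each mutant library was far below each wild-type library. The log2 fold change was -2.60 ± 0.58 (SE; adjusted p = 8.98e-05), which leaves 0.165 of the wild-type level, with a 95% interval from 0.0753 to 0.360. The t reference ended this call (adjusted p = 0.154). The log2 fold changes of the 6 nearest tested loci ran from -2.15 to 3.89. The lowest, LOC_Os04g28870 (-2.15 ± 1.22, SE; adjusted p = 0.249), was not called, and the highest, LOC_Os04g28805, was the 1 that was called. Both were singled out after their values were seen.

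The other 5 tested genes of this kind were not called. The chromomethylase gene CMT2 (LOC_Os05g13790) had a log2 fold change of 0.22 ± 0.43 (SE), with normalized counts of 17.6, 26.8 and 20.3 in wild-type and 31.5, 15.1 and 28.5 in oschz1 that overlapped. DRM3 (LOC_Os05g04330) was at -0.043 ± 0.083, ROS1d (LOC_Os05g37410) at 0.013 ± 0.074 and DML3a (LOC_Os02g29380) at 0.020 ± 0.066 (log2 fold changes, SE). For these last 3 the 95% intervals excluded 1.5-fold.

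RNA-directed DNA methylation genes make or use the small RNAs that guide DRM2. None of the 10 was called by the DESeq2 Wald test, against 7.58% of all tested genes, and 1 of the 10 had an unadjusted p under 0.05. It was NRPD1b (LOC_Os09g38268), listed as a largest subunit of RNA polymerase IV, with normalized counts of 60.4, 59.8 and 51.5 in wild-type and 74.5, 89.6 and 87.3 in oschz1. These did not overlap, and the log2 fold change was 0.53 ± 0.24 (SE; adjusted p = 0.110). The 8 genes whose mean normalized count reached 300, among them the small RNA-binding Argonaute genes AGO4a and AGO4b and the RNA-dependent RNA polymerase gene RDR2, had log2 fold changes between -0.11 and 0.10. All 8 intervals excluded 1.5-fold.

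The largest change among the 21 genes, which were listed with earlier results of these data known, was in a methyl donor gene. S-adenosylmethionine, the donor for DNA and histone methylation alike, is made by S-adenosylmethionine synthetases. The gene listed as SAMS3 (LOC_Os01g18860) had 41, 23 and 11 reads in wild-type and 997, 799 and 444 in oschz1. Its normalized counts were 25.8, 28.1 and 14.9 against 669, 669 and 745, and no wild-type library came near the mutant ones. The log2 fold change was 4.87 ± 0.20 (SE; adjusted p = 1.31e-130), a 29.2-fold rise with a 95% interval from 22.3-fold to 38.2-fold. The synthetase genes SAMS1 (LOC_Os05g04510) and SAMS2 (LOC_Os01g22010) passed the adjusted p at much less than 1.5-fold. Their log2 fold changes were -0.13 ± 0.044 (adjusted p = 0.0186) and -0.19 ± 0.061 (adjusted p = 0.0121), on mean normalized counts of 34908 and 12404. SAMS1 no longer passed with fold changes centred on the median (adjusted p = 0.0564), and neither passed with the t reference (0.275 for SAMS1 and 0.258 for SAMS2). SAHH (LOC_Os11g26850), listed as the hydrolase gene that clears the spent donor, was at 0.12 ± 0.051 (log2 fold change, SE; adjusted p = 0.0872). Synthetase genes are close in sequence, and only reads aligned to a single place were counted. The histone methyltransferase gene SDG714 (LOC_Os01g70220), which acts on H3K9 in rice, was at 0.28 ± 0.28 (log2 fold change, SE; adjusted p = 0.599).

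**Figure D4:**
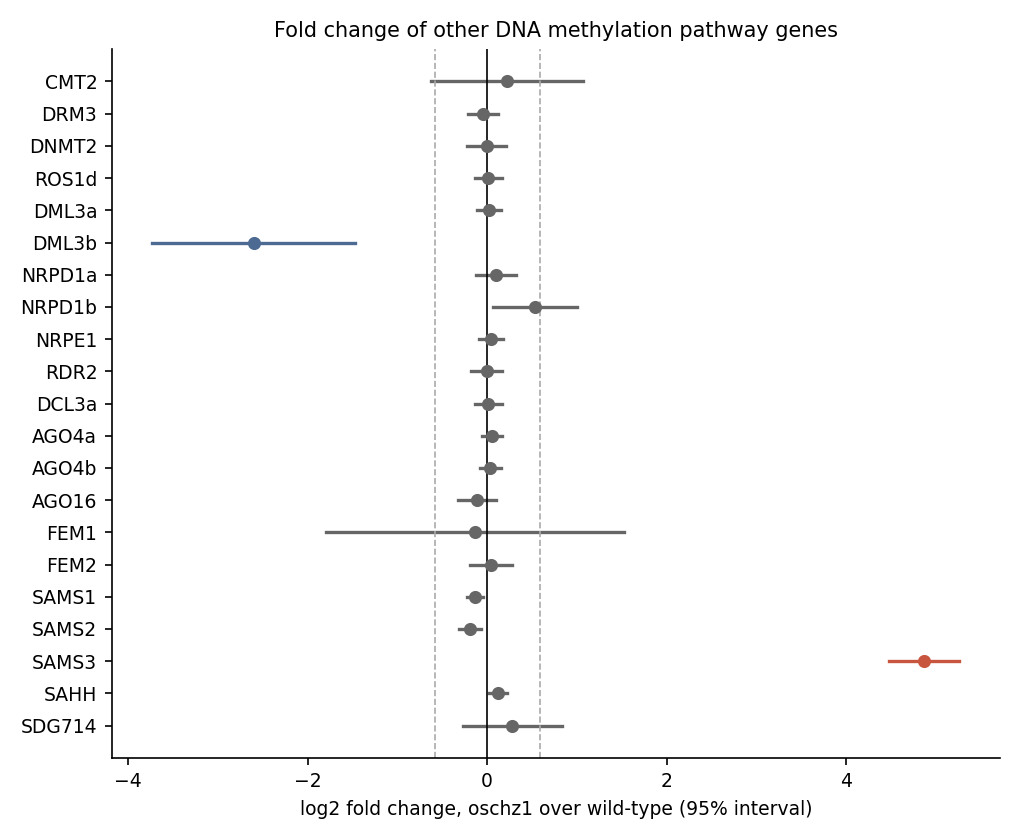
Log2 fold change (horizontal axis, oschz1 over wild-type) of the 21 tested pathway genes with 95% intervals; dashed lines mark 1.5-fold either way. SAMS3 (4.87, red) and DML3b (-2.60, blue) stand apart, and the widest interval among the others is that of FEM1, from -1.79 to 1.52.

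Because maintenance methyltransferases are used most where DNA is being replicated, markers of dividing cells were set beside MET1b. Of the 11 markers, 3 rose, none fell and all 11 had higher fitted values in oschz1 (median log2 fold change 0.74; 6 had an unadjusted p under 0.05). Over all tested genes 6.24% were called as higher in oschz1 and 49.2% had higher fitted values there. Of genes within 2-fold of the mean normalized count of MET1b, 16.1% were called in either direction. The genes that rose were MCM5, MCM6 and MCM7, which code for parts of the helicase that opens DNA for replication. Their log2 fold changes were 1.09 ± 0.40, 1.25 ± 0.38 and 1.25 ± 0.40 (SE). With 1 library left out at a time, MCM7 kept its call 6 of 6 times, MCM6 lost it without wild-type b, and MCM5 lost it without wild-type a, wild-type b, oschz1 a or oschz1 c. No marker was at 0 reads in any library.

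Summed over the 11 markers, the normalized counts were 505, 544 and 509.7 in wild-type and 603, 690.1 and 685 in oschz1, which did not overlap and had a ratio of means of 1.27. The 3 genes that rose summed to 56.6, 36.6 and 55.6 in wild-type and to 102, 116 and 131 in oschz1. They were picked by their calls in this same comparison, so their separation follows from that choice and is no further result. The other 8 summed to 448 to 508 and 501 to 574, and overlapped. PCNA and MCM2, with wild-type means of 288 and 91.4, had the largest counts in that sum (wild-type mean 469.9). Taken singly, PCNA, MCM2 and CYCB2;2 overlapped between genotypes. MCM3, MCM4, CDKB2;1, CYCB1;1 and CYCB2;1 did not, at 1.57-fold (MCM4) to 2.23-fold (MCM3) in oschz1, and none of them was called. Among tested genes with means of at most 50 and recovered reads, 26.4% did not overlap. Among the mutant libraries MET1b was highest in oschz1 a, where the 11 summed markers were lowest, and lowest in oschz1 c. Single markers differed in their order: CYCB1;1 was highest in oschz1 a (33.5), while MCM7 and PCNA were highest in oschz1 c (38.6 and 314). No conclusion is drawn from the order of 3 libraries. The part of dividing cells in the MET1b result was not tested. Genes of green leaf tissue were abundant and none of 3 was called by the DESeq2 Wald test (2 had an unadjusted p under 0.05), with log2 fold changes from -0.21 for CAB1R to 0.13 for LHCB1.3.

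**Figure D5:**
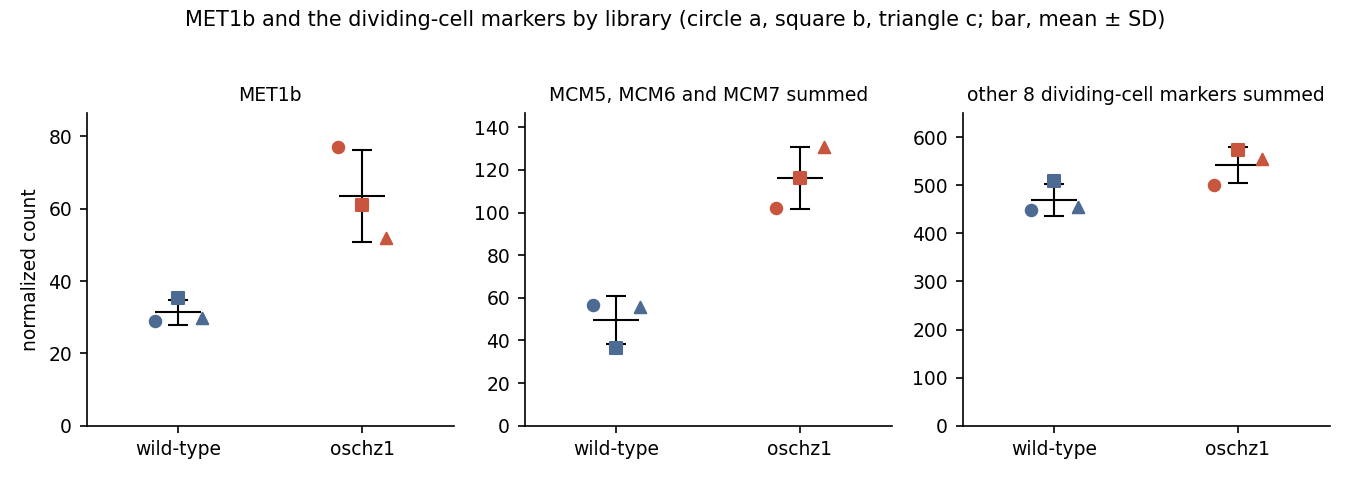
Normalized count (vertical axis, from 0) by library for MET1b, for MCM5, MCM6 and MCM7 summed and for the other 8 dividing-cell markers summed, in wild-type and oschz1; bars are mean ± SD. The first and second panels separate the genotypes, at 28.9 to 35.4 against 52.0 to 77.2 and at 36.6 to 56.6 against 102 to 131, and the third does not. The second panel holds the markers called in this same comparison and the third the rest, so the contrast between these panels follows from that choice. PCNA and MCM2 have the largest counts in the third.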

How the data were processed

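The authors, per the study's methods, trimmed stranded paired-end reads with cutadapt, aligned them (HISAT2), kept unique alignments (SAMtools), counted genes (featureCounts) and fitted DESeq2. The strand setting of the counting is not given in the sources used. The deposited table holds the authors' mean normalized count (a signal averaged over 6 libraries), the log2 fold change with its SE, the Wald statistic (a score) and the p-value with its Benjamini-Hochberg adjustment. These columns are the authors' own comparison, used because the table holds nothing else. The header names no direction, and positive values were taken as higher in oschz1 because the 5 loci that the study followed as raised are all positive. MET1b is itself among these loci. Read this way, 1619 genes were called higher and 348 lower, which are also the study's counts of upregulated and downregulated genes.

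Size factors were read from genes with few reads, whose means are sums of whole reads. All 3574 distinct means under 5 had exactly 1 such sum (largest difference 5.05e-10). For other genes, whole reads were kept where 1 set alone gave the deposited mean and, in a refit by the authors' DESeq2 model, the deposited fold change within 3.00e-09. This held for 99.5% of 7237 tested genes with means of at most 50, and for MET1b, DRM2, ROS1c and the other genes given by library. The search stopped at a mean of 800. Total reads by library are not given, and the mean normalized counts sum to 23.7 when given in units of 1000000 reads.

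The members and lists were chosen with earlier results of these data known. All members are named, as are list genes past the adjusted p and a few others. Names were checked against RefSeq assembly ASM3414082v1, whose coordinates were not used. The locus of OsChz1 is not named in the sources used here, so its level was not checked. Alternatives covered thresholds, low-count filters, centring, a t reference and left-out libraries, the last with the fit's dispersion held, as set after seeing the data. Intervals are normal at 95% from the SE unless called exact (Clopper-Pearson). Python 3.11.15, numpy 2.4.6, scipy 1.17.1 and pandas 2.3.3 were used.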

Additional observations from a re-analysis of the deposited data

How the results depend on the processing

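Direction held for the called genes MET1b, DML3b, SAMS3, MCM5, MCM6, MCM7 and LOC_Os04g28805 under each alternative that gave them a value, the last 4 of these genes having been added after seeing the data. Of 207 values of 17 single genes under the alternatives, 193 stayed on their side of the call and 14 fell short of it. The 193 include genes that were not called and so had no call to lose, and they do not measure how firm the calls are. The t reference ended 6 calls, those of MET1b (adjusted p = 0.223), DML3b (0.154), LOC_Os04g28805 (0.109), MCM5 (0.313), MCM6 (0.241) and MCM7 (0.260). An adjusted p of at most 0.01 ended those of MCM5 and MCM7, and the other 6 were lost with 1 library left out, as given above for MET1b, MCM5 and MCM6. With 1 library left out at a time, the log2 fold change of MET1b ran from 0.87 to 1.15, that of DML3b from -2.73 to -2.43 and that of SAMS3 from 4.70 to 4.99, while that of MET1a ran from -1.01 to 0.055. That of LOC_Os04g28805 ran from 3.18 to 5.31, the lowest without wild-type a and the highest without wild-type b.

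The 1967 calls over all genes became 1266 at a fold threshold of 2, 1311 with the adjustment among means of at least 50, and 443 with the t reference. With the adjustment among means of at least 50, which leaves out MET1b and DML3b by construction, 0 of the 4 remaining members were called (0 had an unadjusted p under 0.05 in the DESeq2 Wald test), 0 passed the adjusted p at any fold and 1 pathway gene was called. The t reference gave the same counts, 0, 0 and 1, with 1 member at an unadjusted p under 0.05. Centring moved the fold changes by 0.019 on the log2 scale and changed no call of a named gene, although SAMS1 then missed the adjusted p (0.0564).

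No paired analysis was possible because the libraries recovered from the table carry no replicate number. Depth limits MET1a, CMT3b and DDM1a most, with 18, 15 and 56 reads over the 6 libraries.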
